A study of Mus musculus with 6 samples.

Results

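The genes described are Hmox1 and 9 further genes of the NRF2 oxidative stress response, in mouse leukaemia cells that were exposed to oil or to tamoxifen inside the host. They were taken by symbol from the table of gene counts, which has 23608 rows, and all 10 of the symbols Hmox1, Nfe2l2, Keap1, Nqo1, Gclc, Gclm, Txnrd1, Srxn1, Slc7a11 and Gsr were present. A filter on low counts left 11614 genes for testing, among them 9 of the 10; Slc7a11 did not pass it. Hmox1 rose 5.82-fold in mean level in the libraries labelled tamoxifen, whereas no other tested member passed the threshold in either direction.

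All the cells carried AE9a, a shortened AML1-ETO fusion that drives leukaemia and was delivered by a retrovirus with GFP, together with 1 floxed copy of Usp18 and UBCER-Cre, a Cre recombinase driven by the ubiquitin C promoter and switched on by tamoxifen. Leukaemia cells were grafted into adult C57BL/6 recipients, which were injected once they were ill, with oil alone in the control group (genotype Usp18+/f) or with tamoxifen (genotype Usp18+/D, the floxed copy recombined). GFP+ Lin- c-Kit+ cells, those that carry the virus, lack markers of mature blood lineages and bear the stem cell factor receptor, were isolated from spleens, with injections having begun 3 days before. Each group holds 3 libraries, described as biological replicates and as 3 mice per group, so p-values measure the spread between these mice. The Cre and the floxed copy were present in both groups, and the series used here has no group with tamoxifen but without recombination, so the drug and the loss of a Usp18 copy cannot be told apart.

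NRF2, the protein of Nfe2l2, is a transcription factor that is made and destroyed continuously, because KEAP1 presents it to a CUL3 ubiquitin ligase. Oxidants and electrophiles modify cysteines of KEAP1, NRF2 then escapes, pairs with a small MAF protein and binds antioxidant response elements near genes for glutathione synthesis, thioredoxin reduction, quinone reduction and haem breakdown. BACH1 occupies the same elements as a repressor that haem releases, and Hmox1 is its best known target. In the spleen the enzyme is prominent in macrophages that digest aged red cells.

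The libraries held between 17118964 and 20741399 counts, and 3 counts in a library corresponded to between 0.145 and 0.177 CPM (counts of a gene relative to the scaled library total), at or under which no level was ranked and no fold was computed. On the first principal component of log2 CPM, which took 65.1% of the variance, the oil libraries lay between -31.1 and -23.4, tamoxifen 1 and 2 at 37.4 and 47.5, and tamoxifen 4 between the groups at -2.99, so results are also given without tamoxifen 4. Usp18 itself, an interferon-induced protease that cleaves ISG15 and dampens interferon receptor signalling, was at 9.12, 10.9 and 11.2 CPM in the oil libraries and at 15.2, 28.0 and 19.4 CPM in those labelled tamoxifen. Its total was thus higher in all the libraries labelled tamoxifen, against the direction of the label (log2 fold change 0.998, edgeR adjusted p = 0.0739, and 0.00654 without tamoxifen 4). Reads outside the deleted part of a recombined copy count toward this total, so it does not check the deletion, and all directions here are between labels. Of the markers of the sorted cell, Kit lay between 439.5 and 781.5 CPM and Gata2 between 457.0 and 651.7 CPM, whereas Ptprc, the pan-leukocyte antigen CD45, stayed at or under 0.679 CPM, Mpo at or under 0.207 CPM and Cebpa at or under 0.111 CPM.

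The binding element that NRF2 and BACH1 share has the core TGACNNNGC, and short stretches around this core are shown where a member had a match. The members were taken by symbol and not by this sequence. In RefSeq windows of 300 bases (250 before and 50 after a transcription start, GRCm38.p6), 4063 of 32817 windows, or 12.4%, held the core on either strand. Of the members, 7 had a window, and 4 of these 7 had a match. Counted by window, as the 12.4% is, this was 4 of 9 windows. Hmox1, Gclc and Gsr had no window in the table. The matches are written on the strand of the gene with the core in capitals, which reads TGACNNNGC in Nfe2l2 and as its reverse complement in Gclm, Srxn1 and Txnrd1.
Nfe2l2, chr2:75704885-75704913, core starting 240 bases before the start: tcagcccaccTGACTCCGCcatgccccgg
Gclm, chr3:122245413-122245441, core starting 134 bases before the start: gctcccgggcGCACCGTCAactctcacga
Txnrd1, chr10:82859104-82859132, core starting 92 bases before the start, in 1 of its 3 windows: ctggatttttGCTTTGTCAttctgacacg
Srxn1, chr2:152105542-152105570, core starting 29 bases after the start: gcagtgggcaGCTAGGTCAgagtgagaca
The windows of Keap1, Nqo1 and Slc7a11 did not hold these letters. A match is a description of letters and not a bound site.

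The transcription factor and its sensor were examined first. Nfe2l2 (chr2:75675513-75704641, minus strand, mm10) was at 121, 114 and 120 CPM in the oil libraries and at 130, 155 and 143 CPM in those labelled tamoxifen. Every tamoxifen library lay above every oil library, by a small margin for tamoxifen 1. The means were 118 ± 3.83 and 142 ± 12.4 CPM (SD, n = 3 each). The log2 fold change was 0.27 with a 95% interval from 0.06 to 0.48, and edgeR gave an adjusted p of 0.176 (Benjamini-Hochberg over all tested genes, here and below). Without tamoxifen 4 the adjusted p was 0.0366 at a log2 fold change of 0.27. Keap1 (chr9:21229730-21239361, minus strand), the adaptor that marks NRF2 for degradation, was at 116, 105 and 114 CPM with oil and at 108, 127 and 110 CPM with tamoxifen. The groups overlapped, the log2 fold change was 0.05 with an interval from -0.18 to 0.27 (edgeR adjusted p = 0.801), and its sign turned when oil 3 (-0.0004) or tamoxifen 2 (-0.03) was left out.

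**Figure D1:**
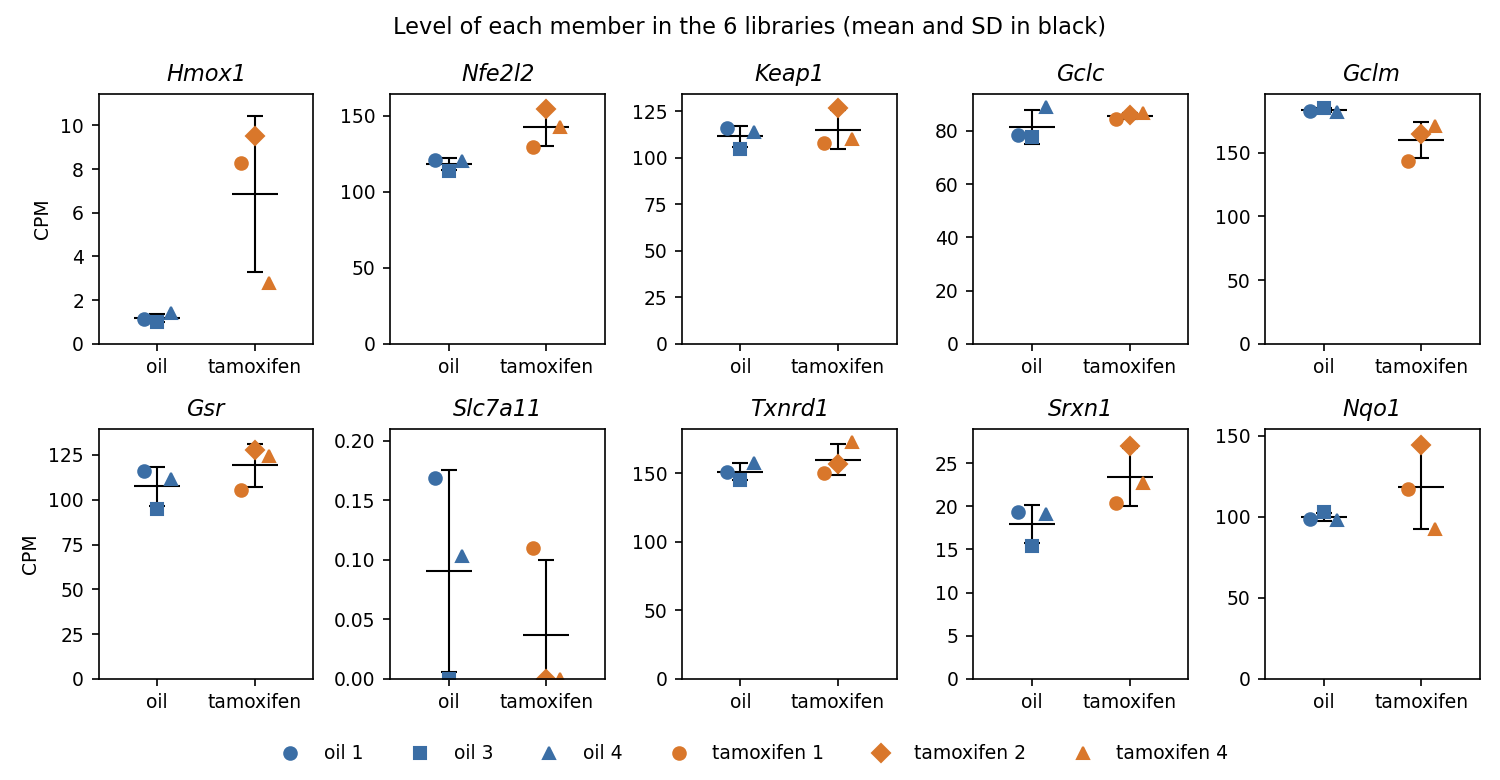
Level of each of the 10 genes in CPM (vertical axes from 0, scaled per gene) in the 3 oil (blue) and 3 tamoxifen (orange) libraries, with the mean and SD in black. Hmox1, Nfe2l2 and Srxn1 had every tamoxifen library above every oil library, Gclm had every tamoxifen library below, and Slc7a11 was at 0 in 3 libraries.

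Hmox1 (chr8:75093621-75100589, plus strand) encodes the inducible haem oxygenase, which opens haem to biliverdin and frees iron and carbon monoxide. It had 20, 21 and 27 counts in the oil libraries, which is 1.13, 1.02 and 1.39 CPM. In the libraries labelled tamoxifen it had 150.5, 161.5 and 50.5 counts, which is 8.23, 9.57 and 2.76 CPM. Tamoxifen 1 and 2 were close together, tamoxifen 4 lay much nearer to the oil libraries, and the groups did not overlap. The means were 1.18 ± 0.191 CPM and 6.85 ± 3.61 CPM (SD, n = 3 each). The log2 fold change was 2.53 with a standard error of 0.47 and a 95% interval from 1.46 to 3.61, and edgeR called it higher at an adjusted p of 0.0426. Among all tested genes 1.75% were called higher and 0.267% lower, against 1 and 0 of the 9 members. Bulk RNA does not tell apart a change in the number of cells that hold a transcript from a change in the amount per cell.

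The call of Hmox1 depended on which libraries were kept. With tamoxifen 4 left out the log2 fold change was 2.91 and the edgeR adjusted p 5.48e-05. With any other library left out the direction held and the call was lost, at adjusted p-values of 0.208 without oil 1, 0.186 without oil 3, 0.175 without oil 4, 0.130 without tamoxifen 1 and 0.120 without tamoxifen 2, and log2 fold changes between 2.22 and 2.66. The DESeq2 Wald test gave an adjusted p of 7.46e-06, whereas limma-voom gave 0.125 at a log2 fold change of 2.33. By DESeq2, 5.86% of all genes with an adjusted p were higher and 1.75% lower, and Hmox1 was again the only member called.

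Of the members in glutathione synthesis and recycling, edgeR called 0 of 3 tested, 0 had an unadjusted p under 0.05 and DESeq2 called 0. Gclc (chr9:77754535-77794485, plus strand), the catalytic subunit of glutamate-cysteine ligase, was at 78.3, 77.6 and 88.9 CPM with oil and at 84.4, 85.8 and 86.6 CPM with tamoxifen. The tamoxifen libraries all fell within the oil range, and the log2 fold change was 0.07 with an interval from -0.13 to 0.27 (edgeR adjusted p = 0.663). Gclm (chr3:122245557-122270732, plus strand), the modifier subunit that makes the ligase more efficient, was at 183, 185 and 182 CPM with oil and at 144, 165 and 171 CPM with tamoxifen. All tamoxifen libraries were below all oil libraries, the only member with that order. Its means were 183 ± 1.62 and 160 ± 14.2 CPM (SD, n = 3 each), the log2 fold change was -0.20 with an interval from -0.40 to 0.01, and the edgeR adjusted p was 0.261, or 0.0308 at -0.25 without tamoxifen 4. Gsr (chr8:33652523-33698163, plus strand), the reductase that returns oxidized glutathione to its working form, was at 116, 95.1 and 112 CPM with oil and at 106, 128 and 125 CPM with tamoxifen. Those ranges overlapped (log2 fold change 0.15, interval from -0.11 to 0.41, edgeR adjusted p = 0.453). Slc7a11 (chr3:49892526-50443614, minus strand), the cystine importer xCT, had 3, 0 and 2 counts with oil and 2, 0 and 0 with tamoxifen, at or under the counting limit in every library, so no fold was computed.

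Thioredoxin and quinone reduction gave small differences. Txnrd1 (chr10:82833951-82897712, plus strand), the cytosolic thioredoxin reductase, was at 151, 146 and 158 CPM with oil and at 150, 157 and 173 CPM with tamoxifen. The groups overlapped, and the log2 fold change was 0.08 with an interval from -0.12 to 0.28 (edgeR adjusted p = 0.606). Srxn1 (chr2:152105516-152111376, plus strand), the sulfiredoxin that repairs over-oxidized peroxiredoxins, was at 19.4, 15.4 and 19.1 CPM with oil and at 20.4, 27.0 and 22.7 CPM with tamoxifen. Every tamoxifen library was above every oil library, and tamoxifen 1 exceeded the upper oil libraries by little. The means were 18.0 ± 2.22 and 23.4 ± 3.37 CPM (SD, n = 3 each). The log2 fold change was 0.38 with an interval from 0.03 to 0.73 (edgeR adjusted p = 0.226, and 0.0726 without tamoxifen 4). Nqo1 (chr8:107388225-107403206, minus strand), the quinone reductase that often serves as a readout of NRF2 activity, was at 98.5, 103 and 98.0 CPM with oil and at 117, 144 and 92.7 CPM with tamoxifen. Tamoxifen 1 and 2 were above the oil libraries and tamoxifen 4 was below them. Over all libraries its log2 fold change was 0.24 with an interval from -0.10 to 0.59 (edgeR adjusted p = 0.372), and without tamoxifen 4 it was 0.39 with an adjusted p of 0.00928.

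**Figure D2:**
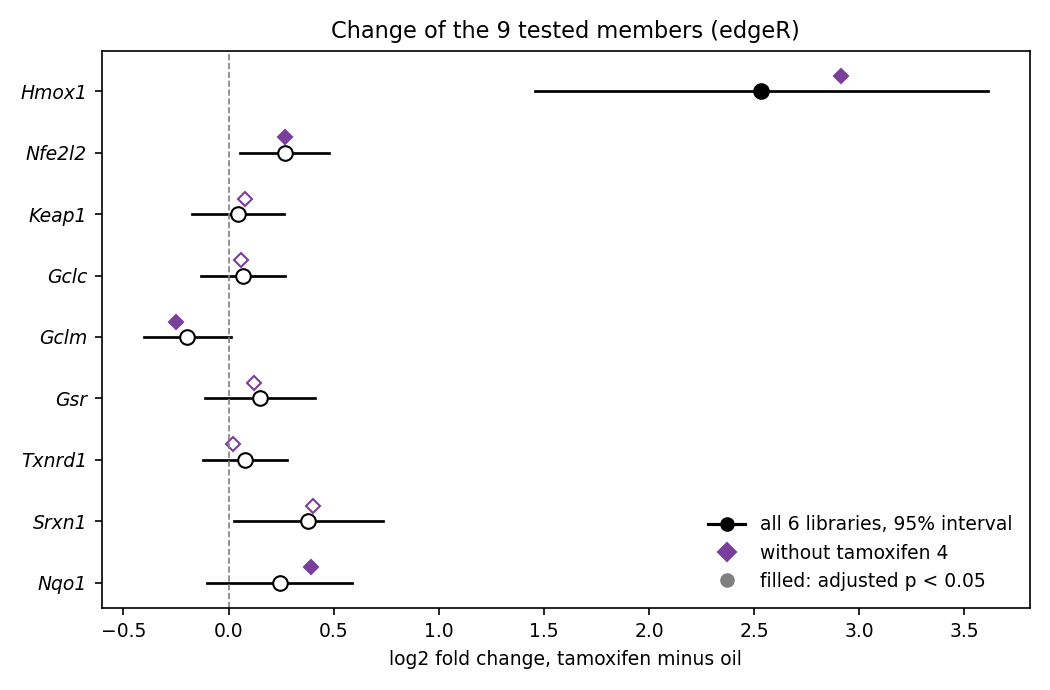
Log2 fold change of the 9 tested genes, tamoxifen minus oil, with 95% intervals over all 6 libraries (circles) and without tamoxifen 4 (purple diamonds); filled symbols have an edgeR adjusted p under 0.05. Hmox1 lies at 2.53 and all the others between -0.20 and 0.38, and Nfe2l2, Nqo1 and Gclm are filled only without tamoxifen 4.

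Across the 9 tested members, 8 log2 fold changes were above 0 and 1 below, with a median of 0.15 beside a median of 0.0001 over all tested genes. In the edgeR fit, 3 members had an unadjusted p under 0.05, all higher (Hmox1, Nfe2l2 and Srxn1), where 12.6% of all tested genes did so upward and 7.99% downward. For these 3 genes every tamoxifen library was above every oil library, and for Gclm every tamoxifen library was below. Of all tested genes 13.3% had all tamoxifen libraries above and 11.8% had all below. Without tamoxifen 4, 3 members were called higher (Hmox1, Nfe2l2 and Nqo1) and 1 lower (Gclm), in a fit that called 19.2% of 11851 genes higher and 17.1% lower.

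Levels were compared between genes per kilobase of exon (CPM per kb). In the oil libraries Nqo1 was highest at 64.2 ± 1.68, followed by Gsr at 39.0, Nfe2l2 at 31.1 ± 1.01 and Gclm at 29.1 ± 0.257 CPM per kb (SD, n = 3 where given). Keap1, Gclc and Txnrd1 came next at 23.7, 21.7 and 21.4 CPM per kb, and the ranges of neighbours among these 3 overlapped. Srxn1 followed at 6.37 and Hmox1 at 0.673 CPM per kb, so Hmox1 was the lowest of the members above the counting limit. In the libraries labelled tamoxifen the order was the same. Nqo1 was at 76.0 ± 16.6 and Hmox1 at 3.92 ± 2.05 CPM per kb (SD, n = 3), still under Srxn1 at 8.28, and Gsr with Nfe2l2, Gclm with Keap1, Keap1 with Gclc, and Gclc with Txnrd1 overlapped.

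Ratios of partner genes within a library do not depend on its depth; these 3 ratios per kilobase were chosen after the values were seen. Nfe2l2 to Keap1 was 1.292, 1.343 and 1.305 in the oil libraries and 1.488, 1.505 and 1.602 in those labelled tamoxifen. The balance of factor to sensor transcripts was thus higher in every tamoxifen library, with means of 1.31 ± 0.0266 and 1.53 ± 0.0613 (SD, n = 3 each). Gclm to Gclc, the modifier against the catalytic subunit of the same enzyme, was 1.40, 1.43 and 1.23 with oil and 1.02, 1.15 and 1.18 with tamoxifen, lower in every tamoxifen library. Hmox1 to Hmox2, the inducible against the constitutive haem oxygenase, was 0.0232, 0.0244 and 0.0358 with oil and 0.213, 0.207 and 0.0609 with tamoxifen, so Hmox2 exceeded Hmox1 in every library. An exact permutation test gave p = 0.1 for each of the 3 ratios, and 0.1 after adjustment. This is the lowest p that 3 against 3 libraries can give, so the test could not pass 0.05. For this reason and because of the choice, the ratios are a description.

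**Figure D3:**
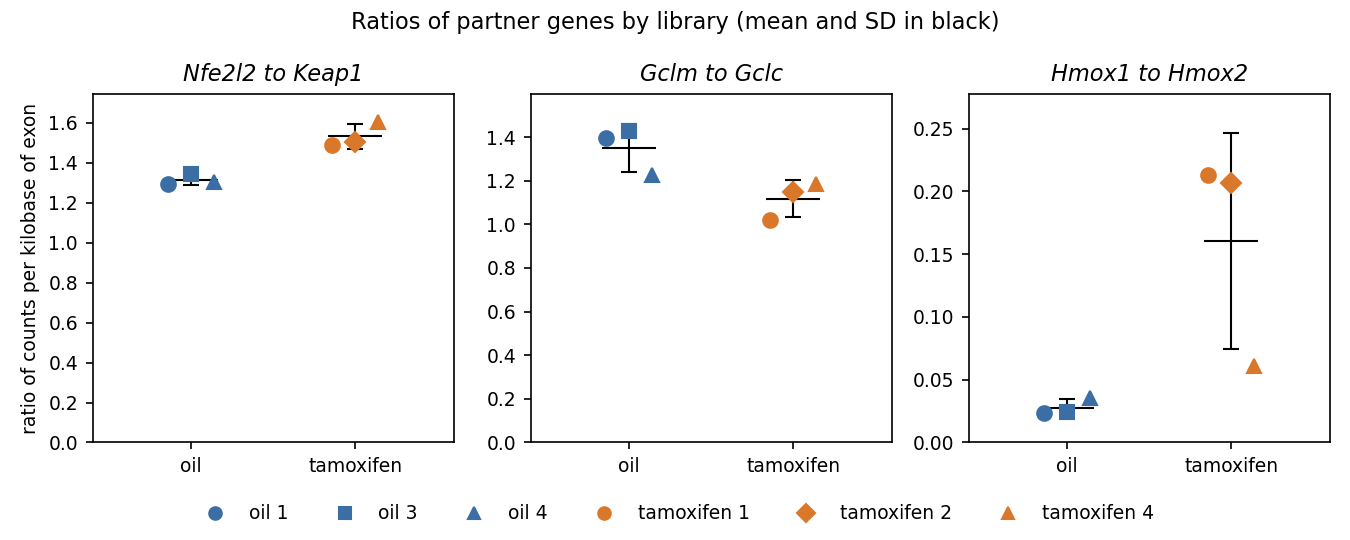
Ratio of Nfe2l2 to Keap1, Gclm to Gclc and Hmox1 to Hmox2 per kilobase of exon (vertical axes from 0) in each library, with the mean and SD in black. The groups do not overlap in any of the 3 panels, and tamoxifen 4 lies nearest to oil for Gclm to Gclc and Hmox1 to Hmox2 but farthest for Nfe2l2 to Keap1.

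The 5 genes whose log2 CPM, centred on its own mean, was closest to that of Hmox1 over the 6 libraries were Muc13, Ecm1, Rgs1, Il16 and Creb3l1, out of 9674 genes with a mean of at least 5 CPM. Their mean absolute differences from Hmox1 were 0.0948, 0.107, 0.145, 0.150 and 0.154 on the log2 scale. Muc13, a membrane mucin, was nearest, at 38.9, 35.4 and 46.7 CPM with oil and 209, 310 and 92.6 CPM with tamoxifen. All 5 shared the low value of tamoxifen 4, and their log2 fold changes lay between 2.20 for Creb3l1 and 2.52 for Il16. They were picked for this likeness, so these values are a description.

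The rest of the pathway was read from 8 further lists with 89 genes in all, of which 74 were tested. In the edgeR fit 3 of these were called higher (Glrx, Gsta3 and Aldh3a1) and 0 lower, where 1.75% of all tested genes were called higher and 0.267% lower. Glrx passed the filter on low counts through the tamoxifen libraries, and its test was not read. An unadjusted p under 0.05 was found for 11 upward and 8 downward, beside 12.6% and 7.99% of all tested genes, and the median log2 fold change was -0.03. The 11 include Glrx, Gstm1 and Gpx3, which passed the filter on low counts through the tamoxifen libraries. DESeq2, run without the filter on 84 of the genes, called 7 higher and 5 lower, where 5.86% of all genes with an adjusted p were called higher and 1.75% lower. The 7 include Glrx, Gpx3 and Gsta2, whose calls were not read. Gsta2 had 2.5, 1.5 and 1.5 counts in the oil libraries, under the counting limit. Of the 84, Gsta4, Mgst1, Akr1b8, Pir, Osgin1 and Cbs had no adjusted p and could not be called. By limma-voom 0 of 74 were called in either direction. Without tamoxifen 4 edgeR called 17 higher and 19 lower of 75, in the fit that called 19.2% of all genes higher and 17.1% lower, and without any other library it called 0.

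Among the regulators of NRF2, which hold its relatives, its small MAF partners, the competing BACH factors and the ligase subunits, 0 of 13 tested genes were called by edgeR or had an unadjusted p under 0.05, and DESeq2 called 0. Bach1, the haem-sensitive repressor, was at 180, 172 and 166 CPM with oil and at 182, 188 and 135 CPM with tamoxifen (log2 fold change -0.03, edgeR adjusted p = 0.892); it was singled out after its values were seen. Sqstm1, the autophagy receptor that can sequester KEAP1, was at 202, 221 and 201 CPM with oil and at 286, 355 and 197 CPM with tamoxifen (0.43, adjusted p = 0.250). Its value in tamoxifen 4 was below every oil library. Bach2 gave 0.67 on the log2 scale (adjusted p = 0.320) and Btrc, a subunit of another ligase for NRF2, gave -0.21 (0.330).

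Of 7 tested glutathione genes 1 was called higher and 0 lower, beside 1.75% and 0.267% of all tested genes. Gsta3, a glutathione transferase, was at 2.14, 3.34 and 3.19 CPM with oil and at 12.2, 13.8 and 5.58 CPM with tamoxifen. As for Hmox1, tamoxifen 4 was nearest to oil without overlap, and the log2 fold change was 1.86 (edgeR adjusted p = 0.0454). Gsta3 has paralogs, and how reads shared among them were counted is not given, so this value is uncertain. For the export pump Abcc1 the log2 fold change was 0.38 (adjusted p = 0.221), Gstp1 of -0.24 (0.273) and Abcc4 of -0.20 (0.217).

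Of 12 thioredoxin genes 1 was called higher and 0 lower, beside 1.75% and 0.267% of all tested genes. A log2 fold change below 0 was found for 8 of the 12, beside 5805 of 11614 tested genes. Glrx, the glutaredoxin that removes glutathione from protein thiols, was at 0.394, 0.969 and 0.720 CPM with oil and at 4.39, 4.61 and 2.76 CPM with tamoxifen. All tamoxifen libraries were well above all oil libraries, and edgeR called it (adjusted p = 0.0332). Its oil libraries, with 7, 20 and 14.5 counts, alone would not have passed the filter on low counts. Its place among the tested genes came from the group in which it was high, so its fold and test were not read. For Txnip, the inhibitor of thioredoxin, the log2 fold change was 0.72 (adjusted p = 0.210), Prdx2, a peroxiredoxin abundant in erythroid cells, of -0.46 (0.138) and Sesn2 of 0.45 (0.201).

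In the detoxification list 1 of 8 tested genes was called higher and 0 lower, beside 1.75% and 0.267% of all tested genes. Aldh3a1, an aldehyde dehydrogenase, was at 0.675, 0.872 and 0.669 CPM with oil and at 2.52, 2.01 and 3.09 CPM with tamoxifen. Here tamoxifen 4 was the highest library rather than the lowest of its group (log2 fold change 1.77, edgeR adjusted p = 0.0426). Ptgr1, a reductase of lipid mediators, was at 137, 152 and 139 CPM with oil and at 80.6, 83.2 and 118 CPM with tamoxifen. All tamoxifen libraries were below all oil libraries, at a log2 fold change of -0.60 that did not pass in edgeR (adjusted p = 0.0859) and passed in DESeq2 (0.00662). For Cbr3 the log2 fold change was -0.37 (adjusted p = 0.475) and Htatip2 of 0.23 (0.390). The calls of Gsta3 and Aldh3a1 held without tamoxifen 4, at edgeR adjusted p-values of 0.000122 and 0.00962. Each was lost when any other library was left out, at adjusted p-values from 0.139 to 0.220 and 0.0883 to 0.212 respectively.

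Haem and iron handling, the pathway in which HMOX1 acts, had 0 of 14 genes called by edgeR, with 1 unadjusted p under 0.05 upward and 4 downward, beside 12.6% and 7.99% of all tested genes. Every tamoxifen library was below every oil library for 6 of the 14, beside 11.8% of all tested genes. DESeq2 called 1 higher and 3 lower, beside 5.86% and 1.75% of all genes with an adjusted p. Slc40a1, the iron exporter ferroportin, was at 34.8, 21.6 and 25.2 CPM with oil and at 10.8, 15.3 and 16.6 CPM with tamoxifen. The groups did not overlap (log2 fold change -0.93, edgeR adjusted p = 0.0811, DESeq2 0.00265). Flvcr1, a haem exporter, was at 34.8, 35.9 and 37.4 CPM with oil and at 47.5, 56.7 and 47.2 CPM with tamoxifen, also without overlap (0.49, edgeR adjusted p = 0.0641, DESeq2 0.00705). Blvrb, a biliverdin reductase that acts downstream of haem oxygenase, was at 463, 502 and 449 CPM with oil and at 380, 393 and 379 CPM with tamoxifen (-0.30, edgeR adjusted p = 0.113, DESeq2 0.0228); it was singled out after its values were seen, as the enzyme next to HMOX1. Ftl1, the ferritin light chain, had a log2 fold change of 0.41 (edgeR adjusted p = 0.295), and Hmox2 of 0.02 with an adjusted p of 0.937.

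The remaining 3 lists had 0 genes called by edgeR. In NADPH supply 1 of 5 tested genes had an unadjusted p under 0.05 upward and 1 downward, beside 12.6% and 7.99% of all tested genes. DESeq2 called 0 of this list. For Tkt, the transketolase, the log2 fold change was -0.27 (adjusted p = 0.241), G6pdx, the first enzyme of the pentose phosphate pathway, of 0.23 (0.233) and Taldo1 of -0.14 (0.512). Among 6 tested superoxide and peroxide genes, Gpx1, Sod1 and Gpx4 had log2 fold changes of -0.13, 0.12 and -0.11 with edgeR adjusted p-values of 0.453, 0.712 and 0.542. Gpx3, the gene of that list with an unadjusted p under 0.05, had 4, 5.5 and 2.5 counts with oil and 9.5, 20.5 and 37 with tamoxifen, so it passed the filter on low counts through the tamoxifen libraries and its test was not read. The ATF4 and cystine list includes the partner chain of the cystine importer. Of its 9 tested genes 1 had an unadjusted p under 0.05, upward, beside 12.6% of all tested genes. That gene was Slc3a2, at 313, 300.4 and 315 CPM with oil and at 448, 569.5 and 387 CPM with tamoxifen, all tamoxifen libraries above all oil libraries (0.60, edgeR adjusted p = 0.0746, DESeq2 0.00302). Cth, which makes cysteine from cystathionine, differed by 0.85 on the log2 scale (adjusted p = 0.491) and was at 31.7 CPM in tamoxifen 4 against 3.95 to 7.82 CPM in all other libraries. For Chac1 the log2 fold change was -0.61 (adjusted p = 0.318).

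**Figure D4:**
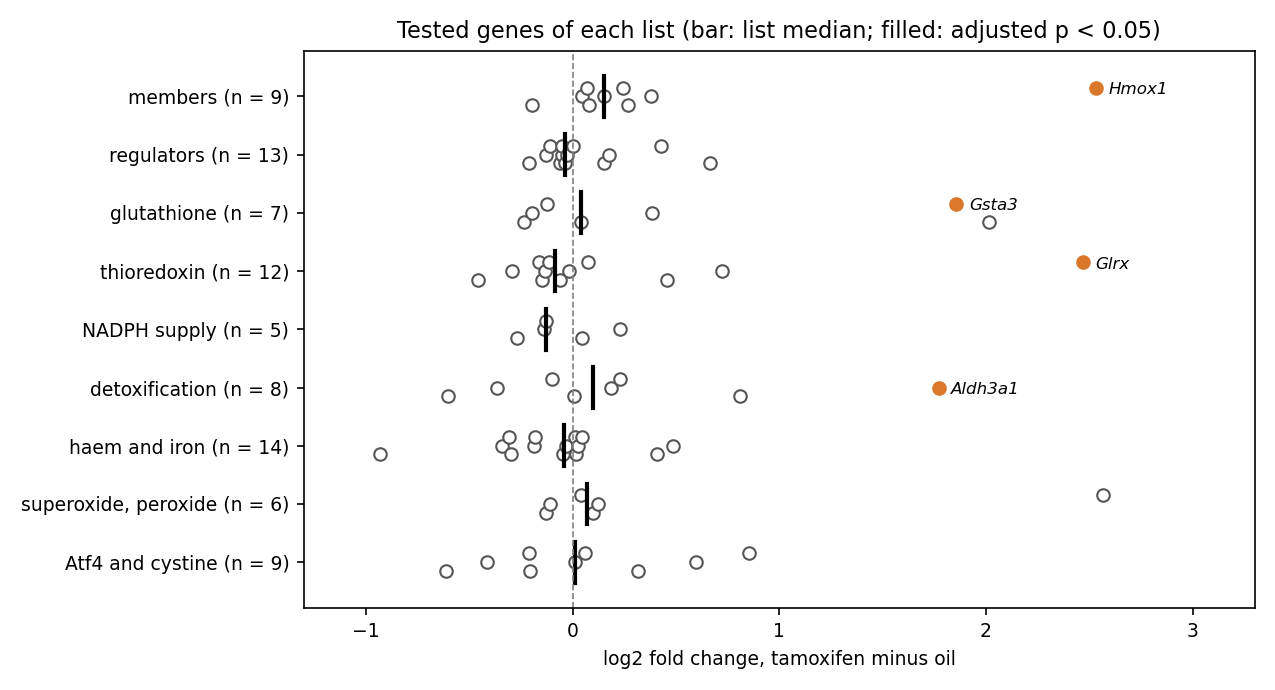
Log2 fold change, tamoxifen minus oil, of every tested gene in the list of the 9 tested members and in the 8 further lists, with the list median as a bar; filled points have an edgeR adjusted p under 0.05. The list medians lie between -0.13 and 0.15, and the called genes Hmox1, Glrx, Gsta3 and Aldh3a1 stand far to the right of them, as do Gstm1 and Gpx3, which were not called. Glrx, Gstm1 and Gpx3 passed the filter on low counts through the tamoxifen libraries, and their tests were not read.

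Markers of the sorted progenitors and of other blood cells were summed per library; the Lin- gate is meant to remove mature lineages, and c-Kit is itself part of the gate. Macrophage markers, 16 genes, summed to 11.9, 6.20 and 7.64 CPM with oil and to 16.5, 21.9 and 11.1 CPM with tamoxifen. Of 9 tested genes edgeR called 0, and 3 were higher at an unadjusted p under 0.05, beside 12.6% of all tested genes. DESeq2 called 1 higher (Vcam1), beside 5.86% of all genes with an adjusted p. Of the 9 tested genes, 7 had a log2 fold change above 0 and 2 below (C1qb, -0.17, and C1qc, -0.12). Vcam1 was at 1.01, 0.969 and 0.514 CPM with oil and at 3.02, 4.25 and 1.88 CPM with tamoxifen. It had 18.5, 19.5 and 9.5 counts with oil. Its oil libraries alone would not have passed the filter on low counts, so its test was not read. The oil libraries of C1qa, C1qc, Cd5l, Csf1r and Mrc1 alone would not have passed it either. Counts over the 9 tested macrophage markers, here and below, include such genes and are a description. Every tamoxifen library was above every oil library for 3 of the 9 (Vcam1, Cd68 and Axl), beside 13.3% of all tested genes. The other tested genes overlapped between the groups. Adgre1, Cd163, Marco and Spic were at most at 0.590, 0.650, 0.118 and 0.354 CPM in any library, Lyz2 at 1.42, Csf1r and Mrc1 at 2.24 CPM, and none of the 16 genes was at 0 in all libraries. Mast cell and basophil markers, 8 genes, summed to 2378, 2592 and 2643 CPM with oil and to 4274, 6843 and 3109 CPM with tamoxifen. Like Hmox1 and the macrophage, erythroid and progenitor sums, this sum was highest in tamoxifen 2 and lowest within the tamoxifen group in tamoxifen 4. Fcer1a was called higher (log2 fold change 2.12, edgeR adjusted p = 0.0381). Tpsb2 was called too (adjusted p = 0.0402), but with 2, 6.5 and 5.5 counts in the oil libraries it passed the filter through the tamoxifen libraries, and its fold was not read. Ms4a2 and Hdc of the same list were high in every library, at 829.6 to 931 and 1058 to 2059 CPM. Of the 8 genes, 7 had a log2 fold change above 0 and Ms4a2 was at -0.04. In edgeR 6 had an unadjusted p under 0.05, all higher, beside 12.6% of all tested genes. For 5 of the 8 every tamoxifen library was above every oil library, beside 13.3%. Tpsb2 and Mcpt8 passed the filter through the tamoxifen libraries, so these counts are a description. Cma1 and Cpa3 were not called by edgeR (adjusted p = 0.0551 and 0.0640). Erythroid markers, 10 genes, summed to 5061, 6361 and 4086 CPM with oil and to 7468, 7769 and 3258 CPM with tamoxifen, overlapping between the groups. Progenitor markers, 8 genes, summed to between 1386 and 1444 CPM with oil and to between 1487 and 2104 CPM with tamoxifen, and Cd34 was called higher, from 9.68, 8.43 and 11.7 CPM to 113, 134 and 41.8 CPM (3.28, adjusted p = 0.0232). Neutrophil, B cell and T or NK cell markers summed to at most 1.15, 0.878 and 0.103 CPM in any library, and 2 of 8, 2 of 5 and 6 of 8 of them were at 0 in all libraries. The calls of Fcer1a and Cd34 held without tamoxifen 4, at edgeR adjusted p-values of 2.53e-05 and 2.87e-07, and were lost without any other library, at 0.0577 or more. The part of these cell types in the level of Hmox1 was not tested.

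**Figure D5:**
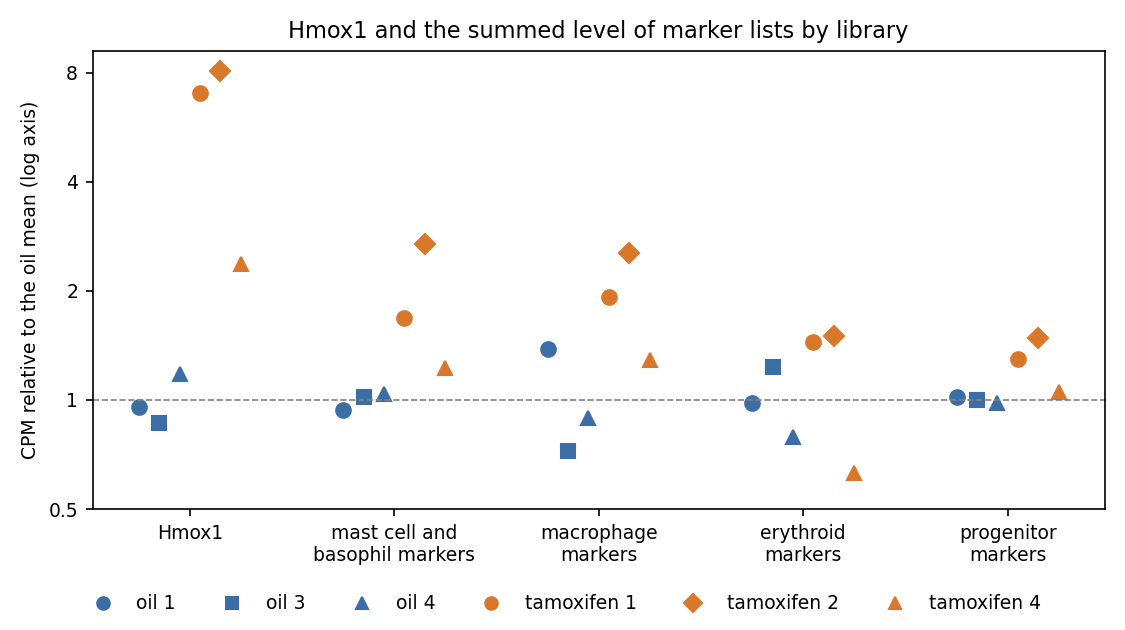
Level of Hmox1 and summed level of 4 marker lists in each library, each relative to its own mean over the oil libraries (log axis, dashed line at 1). Hmox1 and all 4 marker sums have tamoxifen 2 highest, tamoxifen 1 next and tamoxifen 4 lowest within the tamoxifen group.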

How the data were processed

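RNA of the sorted cells was extracted with Trizol and sequenced as paired-end reads on an Illumina NovaSeq. The authors deposited a table of estimated counts, a row per gene symbol, made with STAR and DESeq2 against mm10 per the submitters' processing notes. The counting program, strand setting and annotation are not given in the sources used here. In each library 25.9% to 27.4% of values were not whole numbers, and 26 rows carried a date in place of a symbol. Column numbers differ from the sample titles for oil 3 and tamoxifen 2, and these columns were taken as unnumbered replicates of the group in the column name.

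Estimated counts were rounded and tested with edgeR 4.0.16 in R 4.3.3 (filterByExpr by group, TMM, quasi-likelihood F test, Benjamini-Hochberg over 11614 genes, threshold 0.05). CPM were computed on TMM-scaled totals of the tested genes. Overlapping or antisense genes could not be separated without the strand setting. Alternatives were DESeq2 size factors, the DESeq2 1.42.0 Wald test, limma-voom (limma 3.58.1), no low-count filter, a replicate block and each library left out, and unrounded counts were added after seeing the data. Exon lengths came from GENCODE M21. Replicate libraries differed by 7.30 to 69.0 times the counting variance, so none was a copy. Limits from 3 counts cover counting error only, because PCR copies of a molecule could not be recognised. Scripts were tested on simulated data.

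The members and lists were chosen with earlier results of these data known. Named genes were the members, Usp18 and the 5 genes most like Hmox1 (log2 CPM, prior count 2). Of each other list the called genes were named. At most 3 more were named by largest absolute log2 fold change at a mean of at least 1 CPM. Bach1, Blvrb, Hmox2, Gstm1, Gpx3 and Gsta2 were named after their values were seen. Markers are given as values of their lists. Results for single erythroid markers are not reported here.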

Additional observations from a re-analysis of the deposited data

How the results depend on the processing

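Hmox1 was higher with tamoxifen under every alternative run, with log2 fold changes from 2.22 to 2.91 when 1 library was left out. Under limma-voom it was 2.33 and no longer called, so the members called higher became 0, as did the other pathway genes called higher. Leaving out 1 library gave 0 to 3 members called higher and 0 to 1 lower, and 0 to 17 other pathway genes higher and 0 to 19 lower, with all calls from the fit without tamoxifen 4; the other 5 fits, of the same size, called 8 to 16 genes higher in all, and the cause was not tested. The other pathway genes called were 7 higher and 5 lower by DESeq2, and without the low-count filter 4 higher and 2 lower. The 7 include Glrx, Gpx3 and Gsta2, and the 4 include Glrx, whose calls were not read. Keap1 turned sign, to -0.0745 under the replicate block and to between -0.0308 and 0.0896 with 1 library left out; the cause was not tested. Over all genes, 747 rose and 223 fell by DESeq2, 48 and 6 by limma-voom, and 372 and 61 without the filter.

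Numbers 1 and 4 occur in both groups, but same-numbered libraries did not deviate together (correlations of -0.13 and 0.06), and the numbers were not taken as pairs. With the replicate block Hmox1 was at 1.94 (edgeR adjusted p = 0.0332), 2 other pathway genes were called higher, Aldh3a1 being lost (adjusted p = 0.0686), and 1 lower (Slc40a1, log2 fold change -1.14, adjusted p = 0.0152), and 215 genes rose and 26 fell in all. DESeq2 size factors and unrounded counts changed no call of a member. Hmox1 rested on 20 to 27 counts per oil library, and Slc7a11 was too shallow to read.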
